A study of Mus musculus with 10 samples.

Results

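Genes that write or read histone acetylation were followed in testis of mice given trichostatin A (TSA), an inhibitor of histone deacetylases. They were 6 genes, each read by 1 probe. Kat5 and Ncoa1 encode acetyltransferases or coactivators with that activity, and Brdt, Brd3, Brd7 and Zmynd8 encode proteins with bromodomains. The probes were found by gene symbol, current or older, among 10012 probes on the array, and the 6 genes stand among 8738 named genes with values, 6573 of which were tested. The genes had been picked with their intensities in these pools known, so their differences from the control are given as description, with no test. All 6 passed the filter on low signal that left 7422 probes.

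Lysine acetyltransferases place acetyl groups on histone tails, histone deacetylases remove them, and bromodomains bind acetylated lysine. TSA blocks the removing enzymes, so acetylation builds up while the inhibitor acts. In the testis, acetylation of histone H4 spreads over the genome of elongating spermatids before protamines replace the histones, and Brdt, a bromodomain protein of the germ line, is known to act in that step.

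The mice were BALB/c males of 9 weeks. The 4 TSA groups had received 60 µg per mouse as a single subcutaneous injection in dimethylsulfoxide and phosphate-buffered saline, and were killed 2.5, 5, 7.5 or 10 h later. Control mice had received carrier without TSA and were killed at 10 h, a time that only the 10 h TSA group shares. Each group had 3 mice (15 in all) whose RNA was combined, and each of the 5 pools was read on 2 CodeLink arrays, a single-channel oligonucleotide platform. A group was therefore n = 1 pool, and differences between mice were not measured. The errors on folds at a single time and between TSA pools are the spread between duplicate arrays. Those on mean folds over the TSA pools and on slopes come from limma on pool means.

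Values are the deposited normalised intensities, not logged, and every array has a median of 1.00, and they compare 1 probe between pools, not 1 probe with another. Duplicate arrays correlated at 0.995 to 0.998 across the tested probes. None of the measured marker genes of spermatogonia (6), spermatocytes (8), spermatids (10), Sertoli cells (10) or Leydig cells (7) lay under the intensity floor of 0.0364 in the control pool. The 5 h pool stood apart in markers of another tissue. The summed intensity of 13 measured hepatocyte markers, of 14 listed, was 8.42 to 8.74 on the control arrays, 11.6 to 12.3 at 2.5 h, 185.7 to 185.9 at 5 h, 8.95 to 9.01 at 7.5 h and 9.77 to 9.95 at 10 h. Of these markers, 1 lay under the floor in the control pool. Without the 5 h pool, the mean log2 fold over the TSA pools was -1.19 for Kat5, 0.71 for Ncoa1, -0.80 for Brdt, -0.39 for Brd3, -0.50 for Brd7 and 1.35 for Zmynd8, each within 1 SE of the value with it given below.

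Promoter sequence is shown for the members that lay furthest from the control, since the arrays report on their transcripts. The windows run from 250 bases before to 50 after the transcript start in RefSeq (GRCm38.p6, the C57BL/6J reference and not BALB/c), and all 6 genes matched. Each window was searched on both strands for 4 motifs, which capitals mark and which did not overlap. The E-box, CACGTG, occurs in 7.15% of all 32851 windows of this length. The CCAAT box, spelled by its name, occurs in 37.4% of them. The GC box, GGGCGG, occurs in 35.7%, and the TATA box, searched as TATAAA, in 13.6%. The Brdt window (chr5:107330944-107331243, plus strand) held an E-box from base -78 and a CCAAT box from base -61 relative to the start. The Kat5 window (chr19:5610045-5610344, minus strand, the first of 2) held the same motifs from bases -186 and -163. The Ncoa1 window (chr12:4477133-4477432, minus strand) had 7 GC boxes, and the Zmynd8 window (chr2:165884789-165885088, minus strand, the first of 5) held none of the 4 motifs. The motifs depend on the window: the second Kat5 window held 3 GC boxes and neither of the others named, and of the later Zmynd8 windows the fourth held a CCAAT box. The first windows of Kat5, Zmynd8 and Brd3 lay inside their genes, which on the minus strand begin at bases 5611556, 165898981 and 27507657. The outermost starts of these genes were thus not among the windows searched.
Brdt: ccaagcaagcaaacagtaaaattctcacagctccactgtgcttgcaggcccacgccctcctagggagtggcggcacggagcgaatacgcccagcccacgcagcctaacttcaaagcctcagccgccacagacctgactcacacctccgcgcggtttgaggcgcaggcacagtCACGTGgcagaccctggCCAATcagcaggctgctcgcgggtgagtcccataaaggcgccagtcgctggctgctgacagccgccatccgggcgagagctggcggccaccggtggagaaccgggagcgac
Kat5: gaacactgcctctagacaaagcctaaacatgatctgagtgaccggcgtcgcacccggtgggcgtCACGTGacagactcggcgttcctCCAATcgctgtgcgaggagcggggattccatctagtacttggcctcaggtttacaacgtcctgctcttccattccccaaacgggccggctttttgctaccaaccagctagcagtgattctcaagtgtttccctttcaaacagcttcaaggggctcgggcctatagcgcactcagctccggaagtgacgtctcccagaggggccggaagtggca
Ncoa1: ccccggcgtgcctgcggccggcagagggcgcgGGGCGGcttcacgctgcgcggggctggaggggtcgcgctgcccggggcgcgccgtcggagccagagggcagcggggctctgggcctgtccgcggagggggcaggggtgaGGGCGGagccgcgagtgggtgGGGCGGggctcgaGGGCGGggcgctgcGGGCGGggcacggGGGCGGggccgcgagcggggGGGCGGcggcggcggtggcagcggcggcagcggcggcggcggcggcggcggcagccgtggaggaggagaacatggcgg
Zmynd8: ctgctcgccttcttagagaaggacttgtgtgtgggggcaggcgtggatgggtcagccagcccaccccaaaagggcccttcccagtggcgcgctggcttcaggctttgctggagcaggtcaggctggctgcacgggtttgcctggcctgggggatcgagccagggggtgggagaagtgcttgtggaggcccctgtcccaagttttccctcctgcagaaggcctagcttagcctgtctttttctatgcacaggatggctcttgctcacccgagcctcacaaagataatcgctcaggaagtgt
G and C made up 64.7% of the Brdt window, 57.0% of the Kat5 window, 84.7% of the Ncoa1 window and 60.3% of the Zmynd8 window, against a median of 52.7% over all windows. The count of CpG dinucleotides in these windows was 23 for Brdt, 19 for Kat5, 49 for Ncoa1 and 8 for Zmynd8, against a median of 7. The windows of Brd3 and Brd7, not printed, each held 2 GC boxes and were 75.0% and 64.0% G and C. A match of these letters describes the sequence and says nothing of which factor binds.

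Among the acetyltransferases, Kat5 was lower and Ncoa1 higher in TSA pools than in the control pool. Kat5 (chromosome 19, probe 4236) encodes Tip60, the catalytic subunit of the complex that acetylates histone H4 and H2A at promoters and DNA breaks. Its probe is annotated with an expressed sequence tag and not with a reference transcript. Kat5 read 1.03 and 0.995 on the control arrays, 0.585 and 0.619 at 2.5 h, 0.499 and 0.513 at 5 h, 0.393 and 0.375 at 7.5 h, and 0.377 and 0.376 at 10 h. Every TSA array lay below both control arrays, and the only pools whose arrays overlapped were 7.5 h and 10 h. The log2 fold over the control was -0.75 ± 0.047 at 2.5 h, -0.998 ± 0.031 at 5 h, -1.40 ± 0.042 at 7.5 h and -1.42 ± 0.023 at 10 h (SE from duplicate arrays). At 10 h the level was 37.3% of control. In whole testis, fewer cells that make a transcript and less of it per cell cannot be told apart.

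Ncoa1 (chromosome 12, probe 6036), also called SRC-1, is a coactivator that nuclear hormone receptors recruit, with a weak acetyltransferase activity. Ncoa1 read 5.50 and 6.31 on the control arrays, 8.03 and 7.56 at 2.5 h, 11.8 and 11.7 at 5 h, 9.84 and 9.13 at 7.5 h, and 11.7 and 12.4 at 10 h. All TSA arrays lay above both control arrays. From high to low the pools ran 10 h, 5 h, 7.5 h, 2.5 h and control, and only 10 h and 5 h overlapped. The log2 fold was 0.40 ± 0.11, 0.99 ± 0.10, 0.69 ± 0.11 and 1.03 ± 0.11 at 2.5, 5, 7.5 and 10 h. The 10 h level was 203% of control.

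**Figure D1:**
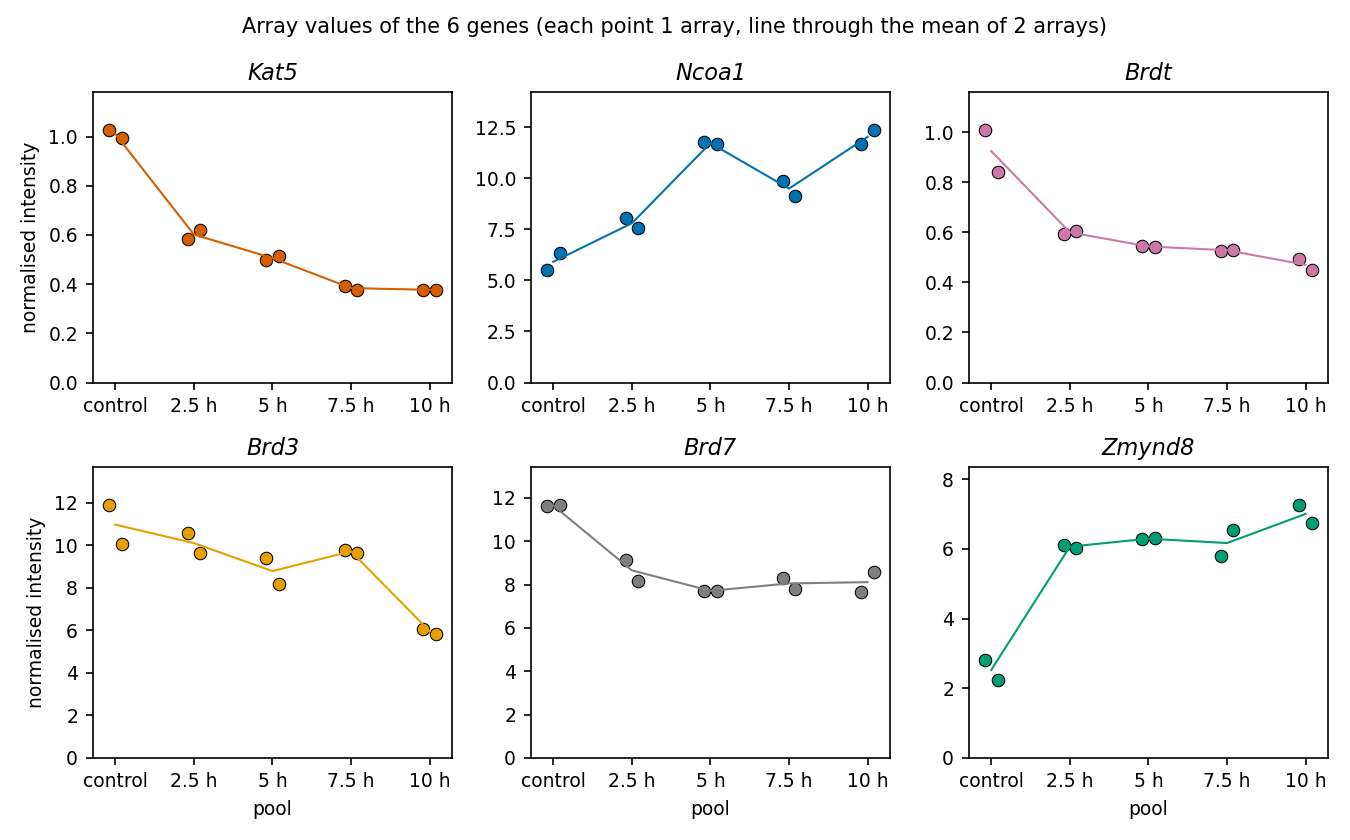
Deposited normalised intensity (linear, axes per gene) of the 6 genes on each of 10 arrays, with the control pool at the low end and the TSA pools at 2.5, 5, 7.5 and 10 h; points are arrays and lines join pool means. Kat5 and Brdt lie below both control arrays in every TSA pool, and Ncoa1 and Zmynd8 lie above them.

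Of the bromodomain readers, Zmynd8 was higher and Brdt, Brd3 and Brd7 were lower in the TSA pools, by different courses. Zmynd8 (chromosome 2, probe 10721) encodes a reader with bromodomain, PHD and PWWP modules that binds the NuRD deacetylase complex and the demethylase Kdm5c, and its probe is annotated with a cDNA clone. Zmynd8 read 2.82 and 2.23 on the control arrays, 6.10 and 6.02 at 2.5 h, 6.27 and 6.31 at 5 h, 5.81 and 6.53 at 7.5 h, and 7.25 and 6.75 at 10 h. The gene was already at 240% of control at 2.5 h and at 277% at 10 h, and all TSA arrays lay above both control arrays. Its log2 fold was 1.27 ± 0.17, 1.33 ± 0.17, 1.30 ± 0.19 and 1.48 ± 0.18 at the 4 times. Within the TSA pools the arrays of 7.5 h overlapped those of 2.5 h and of 5 h, while 10 h lay above all others. The control duplicates differed by 0.34 on the log2 scale, the widest gap between duplicates among the 6 genes.

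Brdt (chromosome 5, probe 7705) is the testis member of the BET family, whose paired bromodomains bind acetylated H4. Brdt read 1.01 and 0.840 on the control arrays, 0.593 and 0.607 at 2.5 h, 0.545 and 0.542 at 5 h, 0.526 and 0.531 at 7.5 h, and 0.493 and 0.448 at 10 h. The pools ran control, 2.5 h, 5 h, 7.5 h and 10 h from high to low, and no neighbours overlapped. Its log2 fold was -0.62 ± 0.13, -0.76 ± 0.13, -0.80 ± 0.13 and -0.97 ± 0.15 at the 4 times, and the level at 10 h was 50.9% of control.

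Brd3 (chromosome 2, probe 2583), a BET protein expressed in most tissues, was furthest from the control at 10 h. Brd3 read 11.9 and 10.1 on the control arrays, 10.6 and 9.63 at 2.5 h, 9.39 and 8.17 at 5 h, 9.79 and 9.62 at 7.5 h, and 6.07 and 5.83 at 10 h. The 2.5 h arrays overlapped those of the control and of 7.5 h, while the 5 h and 10 h arrays each overlapped no other pool, with 10 h the lowest. Its log2 fold was -0.12 ± 0.14, -0.32 ± 0.16, -0.17 ± 0.12 and -0.88 ± 0.12 at the 4 times. When each array was centred on probes of like identifier, the fold at 2.5 h turned to 0.0080 and that at 7.5 h to 0.0093, and without control replicate 1 the fold at 2.5 h was 0.0039.

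Brd7 (chromosome 8, probe 567) is a subunit of the PBAF chromatin remodelling complex. Brd7 read 11.6 and 11.7 on the control arrays, 9.13 and 8.18 at 2.5 h, 7.70 and 7.71 at 5 h, 8.31 and 7.79 at 7.5 h, and 7.64 and 8.58 at 10 h. All TSA arrays lay below both control arrays, and the 10 h arrays overlapped those of the other TSA pools. Its log2 fold was -0.43 ± 0.080, -0.60 ± 0.0017, -0.53 ± 0.046 and -0.52 ± 0.084 at the 4 times. The TSA pools of Brd7 were thus ordered 2.5 h, 10 h, 7.5 h and 5 h from high to low, whereas those of Brdt ran in order of time.

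A gene was counted past the size limit when its log2 fold was at least 1 in size and both TSA arrays lay beyond both control arrays. At 2.5 h, 1 of the 6 genes was past it in the higher direction and 0 in the lower, where the share of all tested probes was 0.674% and 0.243%. At 5 h the counts were 1 higher (1.21% of all probes) and 0 lower (0.337%). Just outside were Kat5 at 5 h, with a log2 fold of -0.998, and Ncoa1 at 5 h, with 0.991. At 7.5 h, 1 gene was higher (1.01%) and 1 lower (0.903%), and at 10 h 2 were higher (1.23%) and 1 lower (1.44%). Zmynd8 alone was past the limit at all 4 times, as were 0.269% of all probes in the higher direction. Regardless of size, 2 genes had both arrays above both control arrays at all 4 times, as had 22.2% of all probes, and 3 had both below, as had 23.0%. These contrasts are among those the genes were picked on, so nothing is read from the counts. The median log2 fold of the 6 genes was -0.27, -0.46, -0.35 and -0.70 at the 4 times, beside -0.0158, -0.0286, -0.0081 and 0.0072 over all tested probes. Without control replicate 2 the count at 5 h was 3, and without 5 h replicate 2 it was 2, in place of 1. At 10 h the higher count was 1 without control replicate 1 (Ncoa1 at 0.93) or without 10 h replicate 2 (0.99), and the lower count was 2 without control replicate 2 (Brdt at -1.10) or without 10 h replicate 1 (-1.04).

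**Figure D2:**
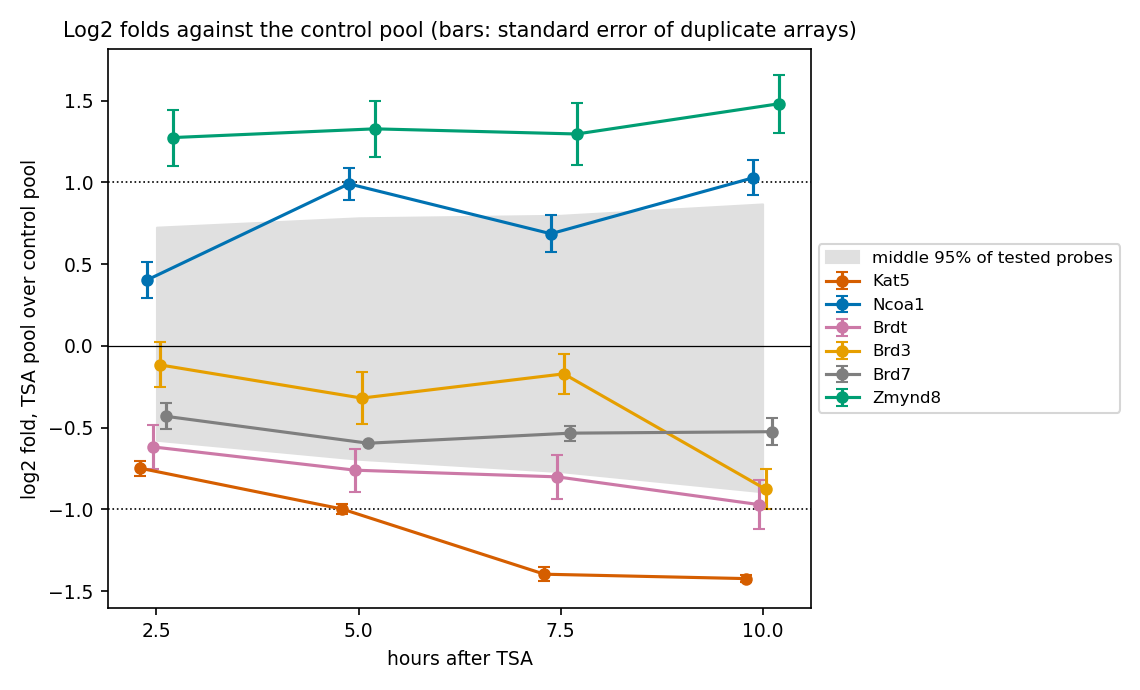
Log2 fold of each TSA pool over the control pool for the 6 genes (x axis, hours; y axis, log2 fold), with bars of 1 SE from duplicate arrays, dotted lines at the size limit and grey bands over the middle 95% of tested probes. Zmynd8 and Ncoa1 lie above 0 at every time and Kat5, Brdt, Brd7 and Brd3 below it.

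Comparisons between TSA pools leave out the control, but the genes were picked on values of all the pools, so these differences are also given as description. Past the limit were 0 of the 6 genes in each of 4 comparisons, beside 0.701% of all probes for 5 h over 2.5 h, 0.741% for 7.5 h over 5 h, 0.310% for 10 h over 7.5 h and 0.984% for 10 h over 2.5 h. Between successive pools the largest step was that of Brd3 at 10 h over 7.5 h, -0.71 ± 0.031, which 61 of 7422 probes matched or passed downward, and Brd3 at 10 h over 2.5 h was -0.76 ± 0.072. Ncoa1 at 5 h over 2.5 h was 0.59 ± 0.044, which 90 probes matched or passed upward; it was then -0.31 ± 0.054 at 7.5 h over 5 h and 0.34 ± 0.067 at 10 h over 7.5 h. Kat5 was -0.25 ± 0.046 at 5 h over 2.5 h, -0.40 ± 0.040 at 7.5 h over 5 h and -0.027 ± 0.034 at 10 h over 7.5 h. Zmynd8 steps were 0.053 ± 0.011, -0.031 ± 0.085 and 0.18 ± 0.099. The largest step between successive TSA pools was thus at 5 h over 2.5 h for Ncoa1, at 7.5 h over 5 h for Kat5 and at 10 h over 7.5 h for Brd3. Steps into and out of 5 h, and the shares of all probes beside them, include the pool with high hepatocyte markers. Ncoa1 at 10 h over 2.5 h, which leaves that pool out, was 0.63 ± 0.060. How the hepatocyte signal bears on the steps was not tested.

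**Figure D3:**
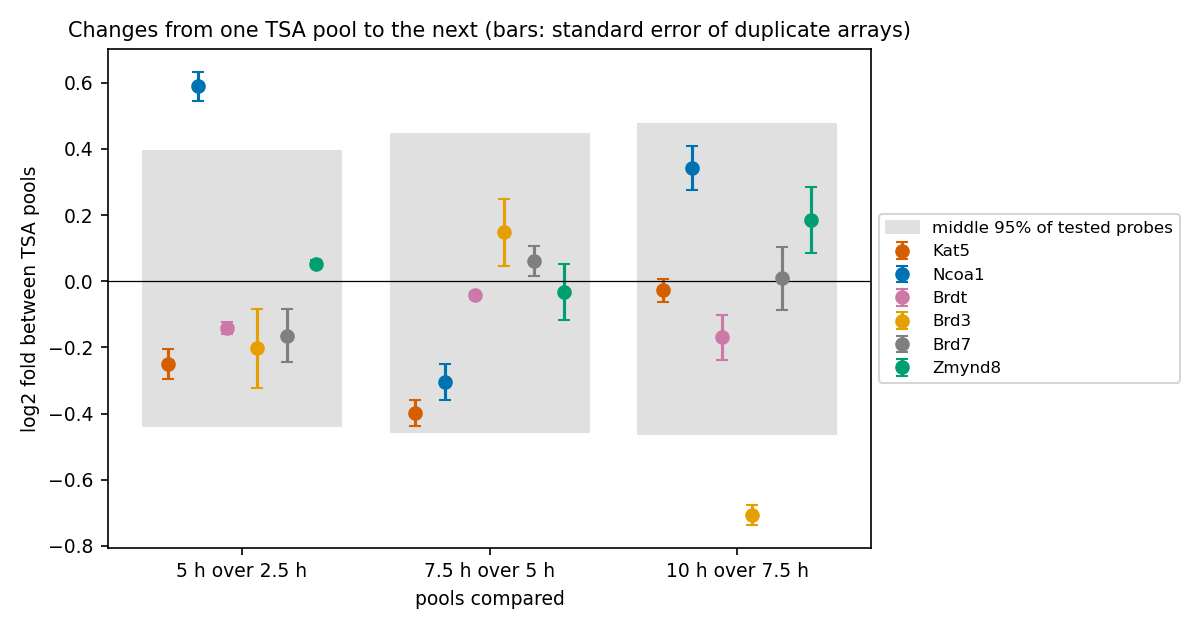
Log2 fold between successive TSA pools for the 6 genes (y axis, log2 fold; x axis, pools compared), with bars of 1 SE from duplicate arrays and grey bands over the middle 95% of tested probes. Brd3 at 10 h over 7.5 h (-0.71) and Ncoa1 at 5 h over 2.5 h (0.59) are the largest steps and lie outside the bands, which end at -0.46 for 10 h over 7.5 h and at 0.39 for 5 h over 2.5 h.

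Over the 4 TSA pools, the mean log2 fold was 1.34 ± 0.12 for Zmynd8, 0.78 ± 0.24 for Ncoa1, -0.37 ± 0.28 for Brd3, -0.52 ± 0.12 for Brd7, -0.79 ± 0.15 for Brdt and -1.14 ± 0.27 for Kat5 (SE, limma on 5 pool means). As ranks among 7422 probes, 20 had a mean at least as high as that of Zmynd8 and 13 one at least as low as that of Kat5. The slope per hour counted the control as 0 h of TSA, though that pool had received carrier and was killed at 10 h. This slope was -0.140 ± 0.0219 for Kat5, -0.0850 ± 0.0201 for Brdt and -0.0724 ± 0.0222 for Brd3. It was -0.0461 ± 0.0195 for Brd7, 0.0936 ± 0.0244 for Ncoa1 and 0.119 ± 0.0384 for Zmynd8. A step from the control to TSA pools that then stay level also gives a slope in this fit. The Zmynd8 folds were 1.27, 1.33, 1.30 and 1.48 at 2.5, 5, 7.5 and 10 h. Those of Brd7 were -0.43, -0.60, -0.53 and -0.52, so neither slope describes a steady change among the TSA pools.

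Around these genes stand lists of acetyltransferases, other acetyl-lysine readers, their complexes and their partners. They were set from textbook knowledge, but with earlier results of these data known. Outside the 6 genes they held 216 genes, of which 134 were on the array and 121 passed the filter. In limma on pool means with Benjamini-Hochberg adjustment over all 7422 probes, 1 of these genes rose in the TSA pools over the control and 0 fell, and 38 had an unadjusted p under 0.05. Over all probes, 2.74% rose and 0.795% fell, and 28.3% had an unadjusted p under 0.05, so the 38 genes were near the share of all probes. The gene that rose was Supt4a, which encodes a subunit of the elongation factor DSIF, at 0.58 ± 0.11 on the log2 scale (limma, adjusted p = 0.049). In the trend over hours, 1 rose and 2 fell (34 with an unadjusted p under 0.05), beside 0.350% and 1.66% of all probes, of which 25.1% had an unadjusted p under 0.05. Kdm5d, a Y-linked H3K4 demethylase, rose by 0.184 ± 0.0299 per hour (limma, adjusted p = 0.044). H2ax, a histone variant of DNA breaks and of the sex body, fell by 0.202 ± 0.0199 per hour (limma, adjusted p = 0.018). The H2ax probe was dim, at 0.49 in the control pool, 0.19 at 7.5 h and 0.14 at 10 h. Its 7.5 h and 10 h values lay under 0.207, the mean intensity that the filter required. Mbd3, a subunit of NuRD, fell by 0.0943 ± 0.0144 per hour (limma, adjusted p = 0.039). The call against the control was lost whenever 1 TSA pool or 1 TSA array was left out. The 3 calls of the trend became 0 without the 2.5 h or the 10 h pool, 1 without the 5 h pool and 1 without 7.5 h replicate 1.

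Relatives of the 6 genes were read in the same fit of TSA against control, in which 28.3% of all probes had an unadjusted p under 0.05. The members themselves are given no p, so passing is not compared between them and their relatives. Of 12 other acetyltransferases tested, 0 passed (limma, 1 with an unadjusted p under 0.05), and their median log2 fold was -0.08, beside -0.0175 over all probes. Kat2a, the acetyltransferase of the SAGA complex, had a mean log2 fold of -0.34 ± 0.17 and Elp3, that of Elongator, 0.28 ± 0.14. Ncoa2 and Ncoa3, the paralogues of Ncoa1, had -0.25 ± 0.18 and 0.28 ± 0.11. Of 13 other bromodomain genes tested, 0 passed (limma, 3 with an unadjusted p under 0.05), with a median of -0.18. Brd2, the BET paralogue of Brd3, had -0.06 ± 0.19, Baz1a, a subunit of ISWI remodellers, had -0.46 ± 0.31, and Brpf1, a scaffold of Kat6a complexes, had 0.47 ± 0.19. The difference between any of these and a member was not tested.

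Partner genes were read with the same limits and against the same 28.3% of all probes. Of 12 genes for P-TEFb and other elongation partners of the BET proteins, 1 passed, Supt4a, and 7 had an unadjusted p under 0.05. Of 26 genes for subunits of acetyltransferase complexes 0 passed, with 9 at an unadjusted p under 0.05, and Ruvbl1, an ATPase of the Tip60 complex, had a mean log2 fold of -0.51 ± 0.12 (limma, adjusted p = 0.066), while Ruvbl2, its partner ATPase, had 0.23 ± 0.11. Of 17 PBAF and BAF partners of Brd7 0 passed (4 at an unadjusted p under 0.05); Pbrm1 had -0.28 ± 0.13 and Arid2 -0.01 ± 0.10. Of 16 NuRD and KDM5 partners of Zmynd8 0 passed the test of TSA against control (5 at an unadjusted p under 0.05). Kdm5c had 0.66 ± 0.16 (limma, adjusted p = 0.070), while Mbd3 had -0.51 ± 0.28. In the order given, the partner lists had median log2 folds of -0.04, -0.05, -0.06 and 0.09, beside -0.0175 over all probes. By size, Mllt3, a YEATS reader, was past the limit downward at 2.5 h with -1.10 ± 0.089 (SE from duplicate arrays). Kdm5d was past it upward at 7.5 h (1.79) and 10 h (1.54), and H2ax downward at 7.5 h (-1.42) and 10 h (-1.85). No other of the 121 genes was past it.

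**Figure D4:**
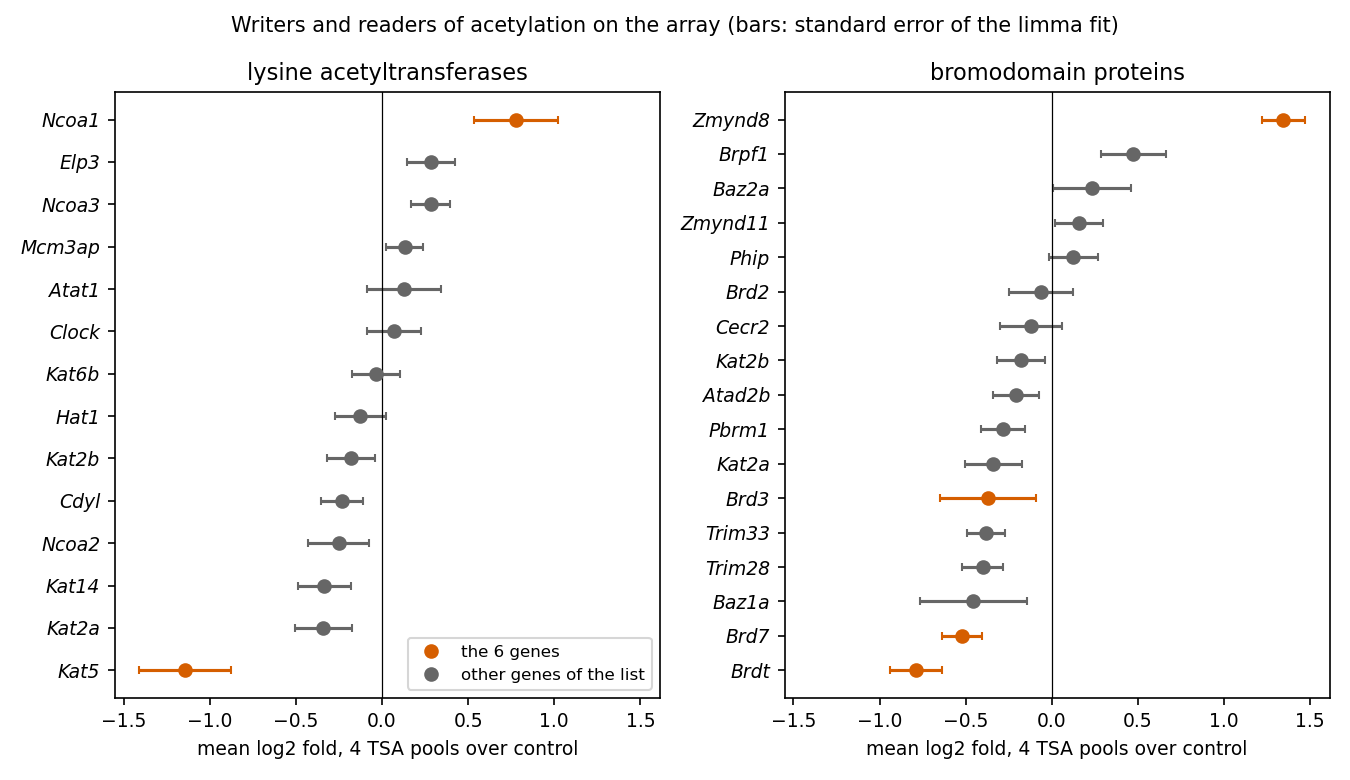
Mean log2 fold over the 4 TSA pools against control for the 6 genes and the other tested acetyltransferase and bromodomain genes, with bars of 1 SE from limma on pool means; the 6 genes are orange and the others grey. The 6 genes lie between -1.14 and 1.34, the other acetyltransferases between -0.34 and 0.28 and the other bromodomain genes between -0.46 and 0.47. The 6 genes were picked with their intensities in these pools known, so nothing is read from their wider range.

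By the distance between the 4 log2 folds over the control, among 3359 candidate probes, the gene most like each member was named, with the next 2. Candidates averaged over 1.99 in intensity, so Kat5 and Brdt, which read at most 1.03 and 1.01, were set beside brighter probes only. For Kat5 they were Hspa1l (distance 0.421), Nxn (0.475) and Actr1a (0.644). For Ncoa1 they were Lrfn1 (0.252), Lin7c (0.314) and Ngly1 (0.320). For Brdt they were Zmynd10 (0.150), Ankrd13a (0.215) and Copg2 (0.270). For Brd3 they were Med11 (0.175), Ntmt1 (0.198) and Macroh2a1 (0.201), for Brd7 Ruvbl1 (0.0463), Snapin (0.0472) and Nckap1 (0.0609), and for Zmynd8 Col16a1 (0.294), Ghrl (0.325) and Zic2 (0.357). The distance is over 4 pools that share 1 control pool, so a low or high control array moves all 4 values together.

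Markers of the germ cells were read beside these genes. The summed intensity of 8 spermatocyte markers, of 11 listed, was 377 to 383 on the control arrays, 352 to 365 at 2.5 h, 354 to 355 at 5 h, 363 to 364 at 7.5 h and 349 to 355 at 10 h, with median log2 folds of -0.26, -0.32, -0.27 and -0.33. The sum of 10 spermatid markers, of 18 listed, was 623 to 637 in the control and 661 to 692, 676 to 682, 692 to 708 and 707 to 763 in the TSA pools in order of time, with median log2 folds of 0.02, 0.10, 0.14 and 0.13. The sum of 6 spermatogonia markers, of 9 listed, was 24.4 to 25.2 in the control and 24.4 to 25.1, 21.7 to 22.4, 22.6 to 23.4 and 21.9 to 22.9 in the TSA pools, with median log2 folds of -0.13, -0.25, -0.22 and -0.24. The spermatocyte sum was thus lower in every TSA pool and the spermatogonia sum from 5 h on. The spermatid sum was higher in every TSA pool. Bright probes weigh most in a sum: Tnp1 alone, a spermatid marker, averaged 172 in the control pool and 224 at 10 h. How these sums bear on Kat5, Brdt, Brd3 and Brd7 was not tested.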

How the data were processed

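RNA of testis had been pooled from 3 mice per group, labelled with Cy5 and read on single-channel CodeLink arrays, 2 for each of 5 pools, per the labels. Each deposited intensity is linear, and once sorted the 10 arrays hold the same values (largest difference 0), as quantile normalisation gives. Which scanner software, background correction or spot flags the authors used is not given in the sources used. Of 10012 probes, 115 had no value on any array.

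A floor at the 5th percentile (0.0364) was set before log2, arrays were shifted to a common median, and the lowest 25% of probes by mean log2 (mean intensity under 0.207) were left out, leaving 7422 probes for 6573 genes. Gene symbols came from the platform table and a RefSeq gene table. limma 3.58.1 in R 4.3.3 was fitted on 5 pool means (3 residual degrees of freedom). Its two-sided p-values were adjusted by Benjamini-Hochberg over the 7422 probes, with a limit of 0.05. The control pool was taken to vary like the TSA pools. Each pool is 1 sample. Against the control, the spread behind the p-values and SEs is that of the 4 TSA pools, each killed at a different hour. In the trend it is the departure of the 5 pools from a line. Pools did not share a condition, so change over time and differences between pools of like mice cannot be told apart in this spread. The fits were also run on simulated data. There the control pool was made to vary like the TSA pools, so that run cannot check whether it does. Alternatives in floor, centring, filter, limit, model and arrays used are given in the closing section.

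The members and the gene lists were chosen with earlier results of these data known. Named genes were the members and, for each list, up to 4 genes past each limma test and up to 4 past the size limit. Also named were, for each member, the 3 nearest probes that carry 1 symbol and average over 1.99, the median over tested probes. Kat2a, Elp3, Ncoa2, Ncoa3, Brd2, Baz1a, Brpf1, Ruvbl1, Ruvbl2, Pbrm1, Arid2 and Kdm5c were named after their values were seen. Promoters were taken from RefSeq (GRCm38.p6). Plots used Python 3.11.15 and matplotlib 3.10.9. The numbers of duplicate arrays did not pair across pools (correlations between -0.187 and 0.14 over 10 pairs of pools).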

Additional observations from a re-analysis of the deposited data

How the results depend on the processing

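Values of the 6 genes kept their sign in 237 of 240 alternatives of a fold at a time, in 142 of 142 of the mean fold and in 142 of 142 of the slope. The 3 others were folds of Brd3: 0.0080 at 2.5 h and 0.0093 at 7.5 h when arrays were centred on probes of like identifier, and 0.0039 at 2.5 h without control replicate 1, where leaving out 1 array gave between -0.24 and 0.0039. Of the 240 folds at a time, 54 kept their sign but moved by at least the spread between duplicate arrays. With an offset of 0.2 before log2, Kat5 and Brdt moved at every time. At 10 h Kat5 was then -1.07 in place of -1.42, and Brdt -0.74 in place of -0.97. Which control array is kept moved the folds of Brdt, Brd3, Ncoa1 and Zmynd8, for Zmynd8 at 10 h between 1.31 and 1.65. With the lowest 50% of probes left out, Brdt and Kat5 had no value. Each gene had 1 probe, so the choice of the brightest probe was not run.

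At a limit of 1.5-fold, the genes past it were 3, 5, 4 and 5 at 2.5, 5, 7.5 and 10 h, beside 7.57%, 9.84%, 11.8% and 16.5% of all probes. They were 1 for 5 h over 2.5 h (2.09% of all probes), 1 for 10 h over 7.5 h (2.56%) and 3 for 10 h over 2.5 h (5.50%). At the main limit, a log2 fold of at least 1 in size, centring on like identifiers gave 2 at 5 h in place of 1. At that limit, leaving out 1 array gave between 1 and 3 at 5 h, with 3 without control replicate 2 and 2 without 5 h replicate 2.

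The pathway count against control (1) was 3 with an offset, 0 after centring (37 with an unadjusted p under 0.05), 0 without a filter (29), 9 with the lowest 50% left out, 11 with eBayes trend and robust, 48 with the replicate block on 10 arrays, 13 with pools as random blocks, 0 in limma when the 2.5 h (39), 5 h (27), 7.5 h (26) or 10 h (33) pool was left out, and between 0 and 6 without 1 array. It was 3 without control replicate 1 and 6 without control replicate 2. The trend count (3) was 0 without a filter (31), 5 with trend and robust, 38 with the replicate block, 12 with random blocks, 0 when the 2.5 h (39) or 10 h (18) pool was left out, 1 when the 5 h pool was, and between 1 and 3 without 1 array. The fit with the replicate block takes duplicates of 1 pool as samples, and the replicate numbers did not pair the arrays. The cause of these moves was not tested.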

Other observations

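Other lists of the pathway were read in the same limma fit of TSA against control, in which 28.3% of all probes had an unadjusted p under 0.05. Of 10 tested nuclear receptors that Ncoa1 serves, 0 passed the test of TSA against control (limma, 4 with an unadjusted p under 0.05), and the median log2 fold was 0.29. Of 12 tested nuclear receptor coregulators, 0 passed (limma, 5 with an unadjusted p under 0.05), with a median of -0.23. Of 6 spermatid nuclear proteins, 0 passed (limma, 1 with an unadjusted p under 0.05), with a median of 0.18.

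The summed intensity of 10 measured Sertoli cell markers was between 49.4 and 56.7 on the TSA arrays, against 48.2 to 53.9 on the control arrays. That of 7 Leydig cell markers was 125.7 to 131.9 on the control arrays, 145.7 to 161.5 at 2.5 h, 136.5 to 138.9 at 5 h, 125.0 to 125.9 at 7.5 h and 142.5 to 147.6 at 10 h.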
